A study of Homo sapiens with 8 samples.

Results

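10 genes of the Notch pathway were followed in an osteosarcoma cell line: the receptors NOTCH1, NOTCH2 and NOTCH3, the ligands JAG1, JAG2 and DLL1, the DNA-binding factor RBPJ, and the target genes HES1, HES4 and HEY1. They were taken by symbol from a table of 54174 gene symbols, and all 10 had a value in every library. The cells were 143B, an established human osteosarcoma (malignant bone tumour) line. In the control group 4 libraries came from cells transfected for 48 h with a vector plasmid. In the knockout group 4 libraries came from cells transfected for 48 h with a plasmid labelled for NELL1 knockout, where NELL1 encodes a secreted matrix protein. Both groups therefore carried a plasmid and the transfection reagent, and the transfection was transient, with no clone named in the labels.

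Notch receptors are single-pass membrane proteins that are activated by ligands on a neighbouring cell. Binding of a Jagged or Delta-like ligand leads to cleavage of the receptor by an ADAM protease and then by gamma-secretase, which frees the intracellular domain to enter the nucleus. There it binds RBPJ, a factor that otherwise holds target genes down with corepressors, and recruits Mastermind-like coactivators. HES and HEY genes, which encode basic helix-loop-helix repressors, are the best known targets, and in bone Notch signalling is known for restraining osteoblast maturation.

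The upstream sequences of HES1 and HES4 are shown because both hold a head-to-head pair of RBPJ-type sites and the transcripts of these genes nevertheless had different patterns in the libraries. Promoter windows from RefSeq (GRCh38.p14) were found for 8 of the 10 genes, not for DLL1 and HEY1. The 250 bases before the annotated start are printed on the gene's own strand, 5′ to 3′, with matches to GTGGGAA or GTGTGAA on either strand in capitals (these 2 motifs cannot overlap here). HES1 lies on chromosome 3 at 194136148 to 194138732 and HES4 on chromosome 1 at 998964 to 1000097.
HES1, chr3:194135898-194136147, plus strand: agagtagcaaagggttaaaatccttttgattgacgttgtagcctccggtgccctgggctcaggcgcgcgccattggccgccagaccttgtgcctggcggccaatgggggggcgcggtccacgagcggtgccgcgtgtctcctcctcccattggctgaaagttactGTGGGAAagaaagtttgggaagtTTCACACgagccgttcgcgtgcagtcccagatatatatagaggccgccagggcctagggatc
HES4, chr1:1000098-1000347, minus strand: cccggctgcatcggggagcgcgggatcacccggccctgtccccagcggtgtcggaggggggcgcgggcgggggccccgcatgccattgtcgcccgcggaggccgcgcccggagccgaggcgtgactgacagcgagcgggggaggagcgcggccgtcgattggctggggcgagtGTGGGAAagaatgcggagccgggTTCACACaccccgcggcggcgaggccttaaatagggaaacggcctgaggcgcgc
In HES1 the forward GTGGGAA lies 85 to 79 bases before the start and the reverse-strand GTGTGAA 62 to 56 bases before it. In HES4 the same motifs lie 77 to 71 and 54 to 48 bases before the start. The spacer between the motifs is 16 bases in both genes.

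Of 35116 RefSeq promoter windows of this length, 5.43% held GTGGGAA and 2.48% held GTGTGAA on either strand. A head-to-head pair with a spacer of 15 to 17 bases was found in 2 of them, the windows of HES1 and HES4. The letters and the spacing were chosen from the known paired site of HES1, so its own match is no finding. One of the RBPJ windows held 2 copies of GTGGGAA, and the windows of NOTCH1, NOTCH2, NOTCH3, JAG1 and JAG2 held neither motif. A match of letters is a description of the sequence and shows no binding.

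The values are on a log2 scale, quantile normalized between libraries, so each change is relative to the other transcripts of the same library. The unit before the logarithm was not stated. Among genes with a value in only 1 to 3 libraries, the log2 value fell with log2 exon length with a slope of -0.91 to -0.80, so levels of different genes are compared below as approximately per length. A library held values for 14911 to 15171 genes, and the sequencing depth is unknown. The knockout libraries formed close pairs: the SD of the log2 difference over 9016 tested genes was 0.12 between libraries 1 and 2 and 0.13 between libraries 3 and 4, but 0.46 to 0.50 across these pairs, more than the 0.36 to 0.45 between a knockout and a control library. The control libraries were not evenly spaced either, with an SD of 0.10 between libraries 1 and 2 but 0.29 between libraries 1 and 3. NELL1 itself averaged -5.87 ± 1.29 over the 4 control libraries and -5.88 ± 1.07 over 3 knockout libraries, with knockout library 3 blank, so it did not check the labels. Nothing in the labels says that the replicates came from separate cultures, so p-values measure the spread between these libraries, which may be technical. Of 8 osteoblast lineage markers, 4 had a value in all 8 libraries. SPP1 lay between 3.08 and 4.70, RUNX2 between 0.05 and 0.43 and ALPL between -1.75 and -0.34. COL1A1 lay between -0.33 and 0.65 in the controls. It was -1.45 and -0.87 in knockout libraries 1 and 2 and 0.80 and 0.90 in knockout libraries 3 and 4. COL1A2 and BGLAP were blank in some libraries, and SP7 and IBSP were blank throughout.

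In control cells the order of the levels per length, on the log2 scale, was led by HES1 at 4.59 ± 0.27 (SD, n = 4). NOTCH2 (4.14 ± 0.05), HEY1 (4.07 ± 0.37) and JAG1 (3.86 ± 0.04) came next, and the ranges of HEY1 overlapped those of both neighbours. RBPJ followed at 3.50 ± 0.06 and HES4 at 1.37 ± 0.17, each with a range apart from its neighbours. NOTCH1 (0.64 ± 0.28) and DLL1 (0.27 ± 0.22) overlapped, while JAG2 (-0.89 ± 0.17) and NOTCH3 (-1.71 ± 0.40) lay lowest. NOTCH2 was thus the receptor, and JAG1 the ligand, with the highest level among those followed here.

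Across the 10 genes, JAG1 and NOTCH2 fell and HES4 rose in the knockout libraries, while HES1 moved in opposite directions in the pairs of knockout libraries. Only genes with a mean log2 value of at least 1 were tested, which left 6 of the 10: NOTCH2, JAG1, RBPJ, HES1, HES4 and HEY1. With limma and Benjamini-Hochberg adjustment over all 9016 tested genes, 3 of these 6 had an adjusted p-value under 0.05, 2 lower and 1 higher, where 13.1% of all tested genes were called (7.02% higher and 6.1% lower). The median log2 fold change was -0.27 over the 6 genes and 0.01 over all tested genes. NOTCH1, NOTCH3, JAG2 and DLL1 were below the filter. With each close pair of knockout libraries averaged to 1 value and the 4 controls kept single, 0 of the 6 were called by limma, against 1.2% of all tested genes. In that fit 4 of the 6 had an unadjusted p-value under 0.05, and the share of all tested genes at that threshold is not given here. With the replicate number as a block JAG1 and HES4 were called, 2 of the 6, against 10.2% of all tested genes. A term for replicates 1-2 against 3-4 called the same 3 genes, against 25.2%.

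**Figure D1:**
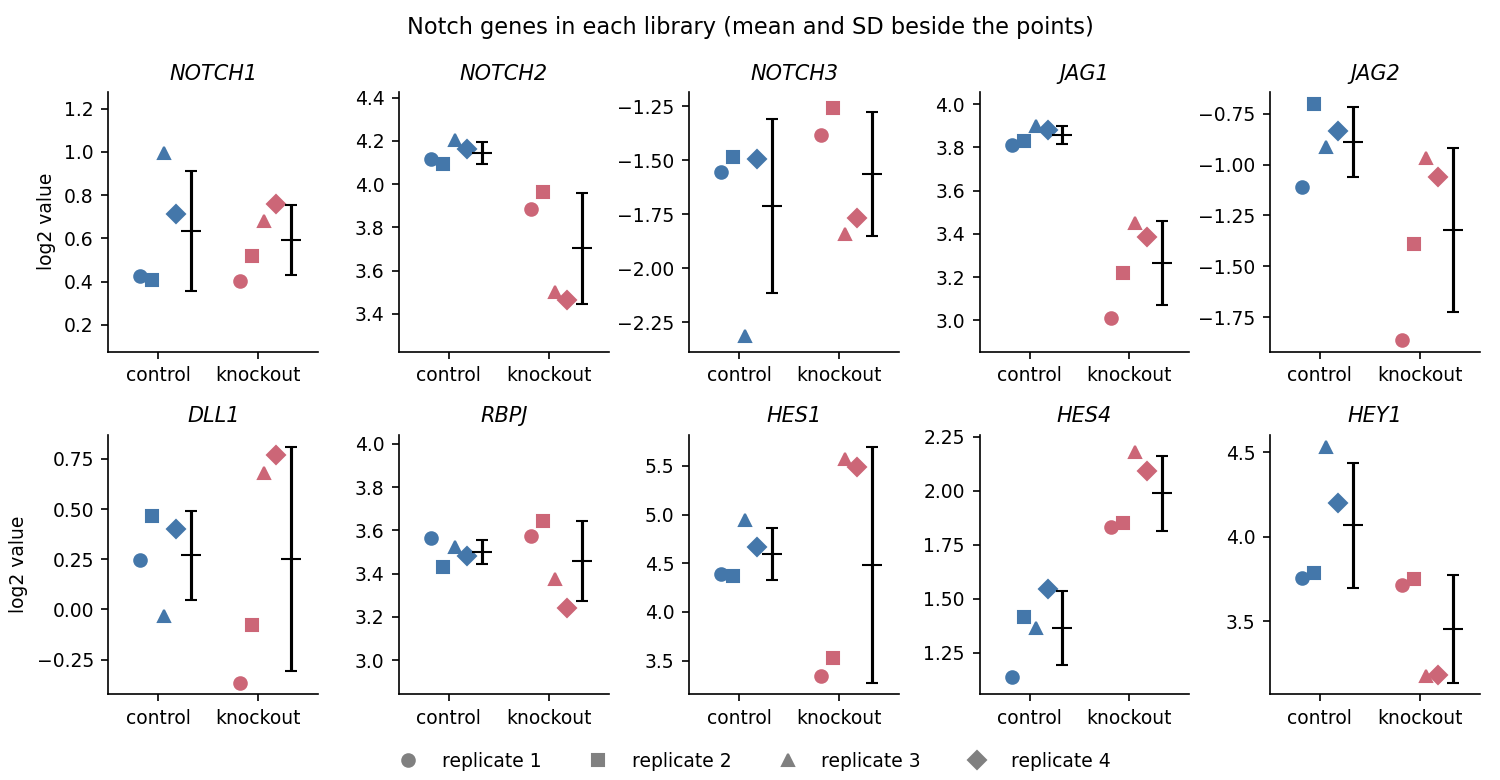
Log2 values (y axis, a separate scale in each panel) of the 10 Notch genes in each control and knockout library, with marker shapes for the replicate number and the mean and SD (n = 4) beside the points. The groups are apart for NOTCH2, JAG1, HES4 and HEY1, 4 of the 6 tested, where 22.9% of all tested genes had groups apart. The knockout libraries of HES1 lie on both sides of the controls, at 3.35 and 3.53 and at 5.57 and 5.49.

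Among the ligands, JAG1 fell. JAG1 encodes Jagged-1, a membrane-bound ligand, and lies on chromosome 20 at 10637684 to 10673999 (GRCh38). Its log2 values were 3.81, 3.83, 3.90 and 3.88 in control libraries 1 to 4 and 3.01, 3.22, 3.45 and 3.39 in knockout libraries 1 to 4. All knockout values lay below all control values, where 22.9% of all tested genes had groups that did not overlap. The JAG1 controls were within 0.09 of one another. The fall of JAG1 was 0.59 ± 0.10 on the log2 scale (SE, 1.50-fold lower; limma adjusted p = 0.00898), and it was seen in 4 of 4 same-numbered pairs. For replicates 1 and 2 the difference was -0.70, against -0.47 for replicates 3 and 4. With the knockout pairs averaged the limma adjusted p was 0.0566, and no single library decided the call (limma adjusted p = 0.0128 to 0.0380 with each library left out).

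The other ligands had low values. JAG2, which encodes a second Jagged ligand, was -1.11, -0.70, -0.91 and -0.84 in the controls and -1.86, -1.39, -0.97 and -1.06 in the knockouts. Its groups overlapped, and the difference of -0.43 gave p = 0.0857 in an exact two-sided permutation test, whose smallest possible p is 0.0286. Without knockout library 1, the lowest, the difference was -0.25. The 4 same-numbered differences were all below 0, averaging -0.72 for replicates 1 and 2 but -0.14 for replicates 3 and 4. DLL1, which encodes a Delta-like ligand, was 0.25, 0.47, -0.03 and 0.40 in the controls and -0.36, -0.08, 0.68 and 0.77 in the knockouts. Knockout libraries 1 and 2 lay below all controls and knockout libraries 3 and 4 above them, so that the mean difference was -0.02 (exact permutation test, p = 0.914). In a limma fit without the filter, over 13943 genes of which 8.3% were called, the adjusted p-values were 0.218 for JAG2 and 0.970 for DLL1.

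Among the receptors, NOTCH2 fell. NOTCH2 lies on chromosome 1 at 119911553 to 120069662 and had log2 values of 4.12, 4.09, 4.21 and 4.16 in the controls and 3.89, 3.96, 3.50 and 3.46 in the knockouts. The groups did not overlap, and knockout libraries 3 and 4 were the lowest. The fall was 0.44 ± 0.12 on the log2 scale (SE, 1.36-fold lower; limma adjusted p = 0.0466), seen in 4 of 4 same-numbered pairs, by -0.18 for replicates 1 and 2 but -0.70 for replicates 3 and 4. The limma adjusted p was 0.0783 with the replicate number as a block, 0.0726 without the filter on low values and 0.138 with the knockout pairs averaged. The call was also lost without any 1 of the 4 control libraries (limma adjusted p = 0.110, 0.108, 0.0831 and 0.123 for libraries 1 to 4), without knockout library 3 (0.0992) or without knockout library 4 (0.0807).

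NOTCH2 has near-identical partial copies, the NOTCH2NL genes, among which reads could be split in a way that the sources do not describe. The log2 mean of NOTCH2NLA was 2.17 in both groups, with an SD of 0.10 over 4 controls and 0.35 over 4 knockouts (limma adjusted p = 0.993). NOTCH2NLB averaged 1.50 ± 0.15 against 1.40 ± 0.20 in the knockouts (limma adjusted p = 0.620), and NOTCH2NLC, below the filter, 0.77 ± 0.17 against 0.75 ± 0.45. All 3 copies had higher values in knockout libraries 1 and 2 than in knockout libraries 3 and 4, by 0.60, 0.34 and 0.76 on the log2 scale, as NOTCH2 did by 0.44. A larger absolute difference than that of NOTCH2 was found in 2479 of the 9016 tested genes. Against the controls the courses differed in knockout libraries 1 and 2 only. There NOTCH2NLA (2.44 and 2.50) and NOTCH2NLC (1.24 and 1.02) lay above all controls. NOTCH2NLB lay within the range of the controls there and NOTCH2 below it. In knockout libraries 3 and 4 NOTCH2NLA (1.82 and 1.92), NOTCH2NLB (1.17 and 1.29) and NOTCH2NLC (0.39 and 0.36) lay below all controls, as NOTCH2 did.

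NOTCH1 and NOTCH3 overlapped between the groups. NOTCH1 was 0.43, 0.41, 1.00 and 0.71 in the controls and 0.40, 0.52, 0.68 and 0.76 in the knockouts, a difference of -0.04 (exact two-sided permutation test, p = 0.857). NOTCH3 was -1.55, -1.49, -2.31 and -1.50 in the controls and -1.38, -1.26, -1.84 and -1.77 in the knockouts. Its difference of 0.15 (exact two-sided permutation test, p = 0.629) became -0.05 without control library 3, the lowest value. Without the filter the limma adjusted p-values were 0.880 for NOTCH1 and 0.713 for NOTCH3, with 95% confidence intervals of -0.39 to 0.31 and -0.37 to 0.66 for the log2 fold changes.

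RBPJ, through which all these receptors act on DNA, lay within a narrow range. Its log2 values were 3.56, 3.43, 3.52 and 3.48 in the controls and 3.57, 3.64, 3.37 and 3.24 in the knockouts. The log2 fold change was -0.04 ± 0.10 (SE; limma adjusted p = 0.810), with a 95% confidence interval of -0.26 to 0.18. Knockout libraries 1 and 2 lay above all controls and knockout libraries 3 and 4 below them, a split of 0.30 on the log2 scale.

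**Figure D2:**
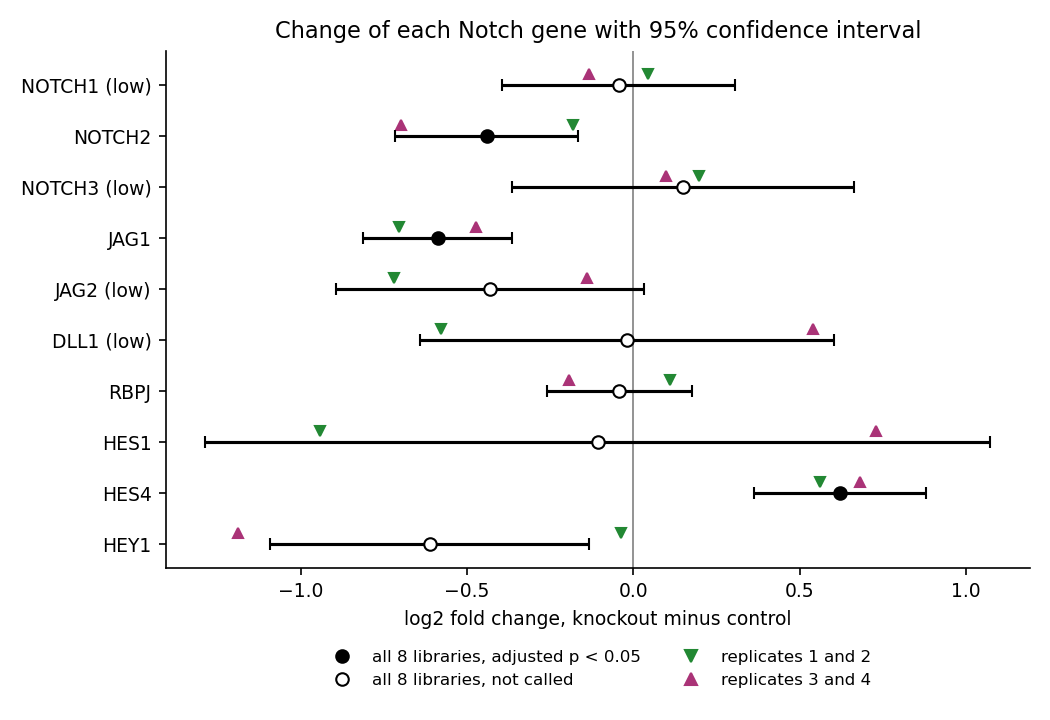
Log2 fold change of each gene, knockout minus control (x axis), over all 8 libraries with its 95% confidence interval from limma, and the mean difference between same-numbered libraries for replicates 1 and 2 and for replicates 3 and 4 as triangles; genes marked low were fitted without the filter. The intervals of JAG1 (-0.81 to -0.36), HES4 (0.36 to 0.88), NOTCH2 (-0.72 to -0.17) and HEY1 (-1.09 to -0.13) lie apart from 0. In each of these genes both triangles are on the same side. Those of HEY1, which was not called, lie at -0.04 and -1.19, and the triangles of HES1 lie at -0.94 and 0.73.

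The 3 target genes took different courses. HES4 encodes a repressor of the HES family that has no counterpart in the mouse genome. Its log2 values were 1.14, 1.42, 1.37 and 1.54 in the controls and 1.83, 1.85, 2.18 and 2.09 in the knockouts. All 4 knockout libraries lay above all controls, and HES4 rose by 0.62 ± 0.11 on the log2 scale (SE, 1.54-fold; limma adjusted p = 0.0120). The rise was 0.56 for replicates 1 and 2, against 0.68 for replicates 3 and 4, and it was seen in 4 of 4 same-numbered pairs. The limma adjusted p was 0.0793 with the knockout pairs averaged and 0.0184 to 0.0415 with each library left out.

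HES1, the most widely studied HES repressor, had log2 values of 4.39, 4.37, 4.94 and 4.67 in the controls. Those of knockout libraries 1 and 2 were 3.35 and 3.53, lower than any control. Those of knockout libraries 3 and 4 were 5.57 and 5.49, higher than any control. The SD over 4 libraries was 0.27 among controls but 1.21 among knockouts. The mean change of -0.11 ± 0.52 log2 units (SE; limma adjusted p = 0.914) had a 95% confidence interval of -1.29 to 1.07, so the fit neither showed a common change nor bounded it closely. Against same-numbered controls the difference was -0.94 for replicates 1 and 2, against 0.73 for replicates 3 and 4. Between the pairs of knockout libraries the difference was 2.09 on the log2 scale, or 4.27-fold, and 22 of the 9016 tested genes had a larger absolute difference. An absolute difference of at least 1 between these pairs was reached by HES1 alone among the 6 tested Notch genes and by 4.08% of all tested genes. The order seen in HES1, with knockout libraries 3 and 4 above and 1 and 2 below all controls, occurred in 7.09% of all tested genes, and the reverse order, seen in RBPJ, in 7.81%. No test was made of the split, because the pairs were recognised from the values of the libraries.

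HEY1, a HES-related repressor, had log2 values of 3.76, 3.78, 4.53 and 4.20 in the controls and 3.71, 3.75, 3.18 and 3.18 in the knockouts. The groups did not overlap, though knockout library 2 and control library 1 were almost level, and 22.9% of all tested genes had groups that did not overlap. The mean change of -0.61 ± 0.21 log2 units (SE; limma adjusted p = 0.0903) did not pass the threshold. For replicates 1 and 2 the difference was -0.04, against -1.19 for replicates 3 and 4. In the controls, HES1 and HEY1 were both highest in library 3 and next in library 4, whereas in knockout libraries 3 and 4 HES1 was at its highest and HEY1 at its lowest.

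**Figure D3:**
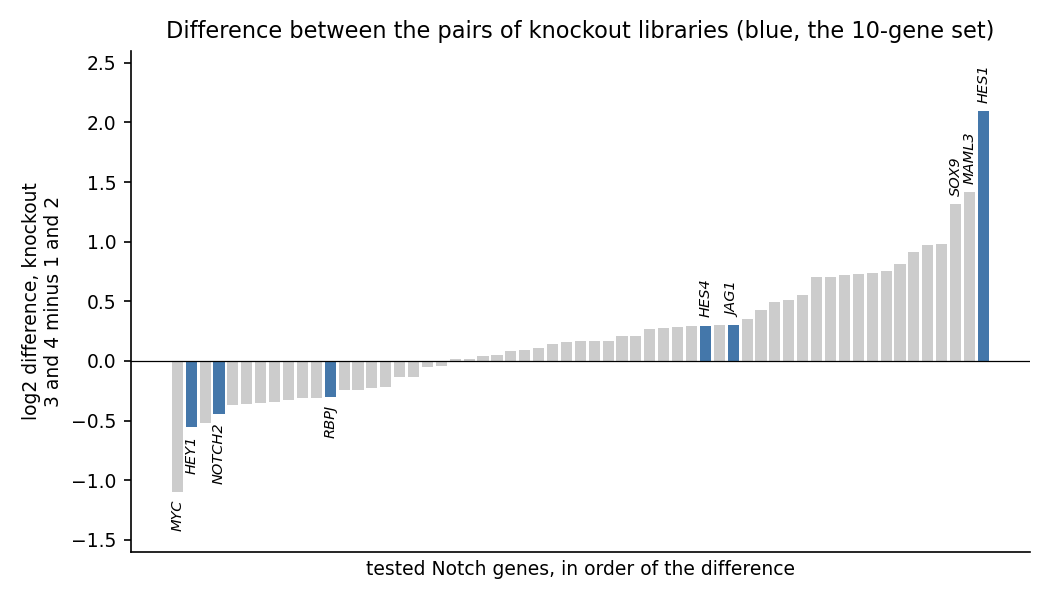
Log2 difference between the mean of knockout libraries 3 and 4 and the mean of knockout libraries 1 and 2 (y axis) for the tested genes of the 10-gene set (blue) and of the wider Notch list (grey), in order of size. HES1 stands at 2.09, followed by MAML3 at 1.41 and SOX9 at 1.32, and MYC lies at the other end at -1.10.

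For each called gene, the 3 tested genes with the highest Pearson correlation over the 8 libraries were listed as a description of its pattern. For JAG1 they were MARS1, PLEK2 and PLEC (r = 0.998, 0.994 and 0.992). For NOTCH2 they were C6orf89, MYL12A and PKIA (r = 0.993, 0.992 and 0.992), and for HES4 they were DIS3L, NDUFA10 and NGRN (r = 0.983, 0.978 and 0.978). These are the highest of 9015 correlations over 8 libraries that include the close pairs.

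The rest of the pathway was read from a list of 81 further genes in 5 roles, of which 53 were tested. Limma called 6 of the 53 (11.3%), 3 higher and 3 lower, close to the 13.1% of all tested genes. The median log2 fold change of the list was -0.11, against 0.01 over all tested genes. Among the wider receptors and ligands only EGFL7 was tested, which encodes a secreted protein able to bind Notch receptors. EGFL7 rose from 2.58, 2.71, 2.78 and 2.74 in the controls to 2.87, 2.99, 3.05 and 2.99 in the knockouts (log2 fold change 0.27 ± 0.07, SE; limma adjusted p = 0.0422). The limma adjusted p for EGFL7 was 0.0553 with the replicate block, 0.0671 without the filter, 0.181 with the knockout pairs averaged, and 0.0742 to 0.119 without control library 1, 2 or 4 or knockout library 2, 3 or 4.

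Against 13.1% of all tested genes, none of the 12 tested genes of receptor processing and glycosylation was called by limma. These include ADAM10 and ADAM17, which cut the receptor at the membrane, and the gamma-secretase subunits. At an unadjusted p-value under 0.05 there were 5, but the share of all tested genes at that threshold is not given here. Of 8 tested genes of trafficking and turnover, 1 was called, against 13.1% of all tested genes. DTX4, a ubiquitin ligase of the Deltex family, fell, with controls between 1.22 and 1.31 and knockouts between 0.86 and 0.97. Its log2 fold change was -0.37 ± 0.06 (SE; limma adjusted p = 0.00725), and with the knockout pairs averaged the limma adjusted p was 0.0772. DTX4 passed the filter of 1 through its control values, with a mean of 1.09 over all 8 libraries. Without the filter the limma adjusted p was 0.0155.

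Of 22 tested nuclear cofactors, 1 was called, against 13.1% of all tested genes. TLE1, a Groucho-family corepressor that HES proteins recruit, rose from 0.99, 1.16, 1.21 and 1.13 in the controls to 2.21, 2.24, 1.88 and 1.85 in the knockouts. The knockout libraries were all above the controls, and the log2 fold change of 0.92 ± 0.11 (SE, 1.89-fold; limma adjusted p = 0.00239) kept an adjusted p of at most 0.0276 under every alternative fitted. MAML3, a Mastermind-like coactivator, followed the split of HES1, with 0.49 and 0.77 in knockout libraries 1 and 2, 2.00 and 2.10 in knockout libraries 3 and 4 and 1.70 to 1.94 in the controls (limma adjusted p = 0.442).

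Of 10 tested genes among the wider targets and the HES/HEY family, 3 were called, against 13.1% of all tested genes. HES6, a family member that can oppose HES1, rose from 1.83, 2.06, 1.79 and 1.88 in the controls to 2.20, 2.34, 2.54 and 2.42 in the knockouts (log2 fold change 0.49 ± 0.09, SE; limma adjusted p = 0.0139). CDKN1A, which encodes the cell cycle inhibitor p21 and answers to many pathways besides Notch, fell from 4.99, 5.07, 5.10 and 5.05 to 3.99, 4.11, 4.23 and 4.15. The fall of CDKN1A was 0.93 ± 0.07 on the log2 scale (SE, 1.91-fold lower; limma adjusted p = 7.9e-04). BHLHE40, a related repressor, fell by 0.86 ± 0.18 (SE; limma adjusted p = 0.0204), by 1.22 for replicates 1 and 2 but by 0.50 for replicates 3 and 4.

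Both HES6 and BHLHE40 depended on single libraries and on the pairs. With the knockout pairs averaged the limma adjusted p was 0.0842 for HES6 and 0.0746 for BHLHE40. Without control library 1 or 4 it was 0.0519 and 0.0547 for HES6, and without control library 1, 2 or 4 it was 0.0627, 0.0658 and 0.0653 for BHLHE40. NRARP, a feedback inhibitor and a common readout of Notch activity, was 1.11, 1.02, 0.84 and 1.08 in the controls and 1.17, 1.11, 1.82 and 1.97 in the knockouts. Its log2 fold change of 0.50 was not called (limma adjusted p = 0.128), and the high values were those of knockout libraries 3 and 4.

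**Figure D4:**
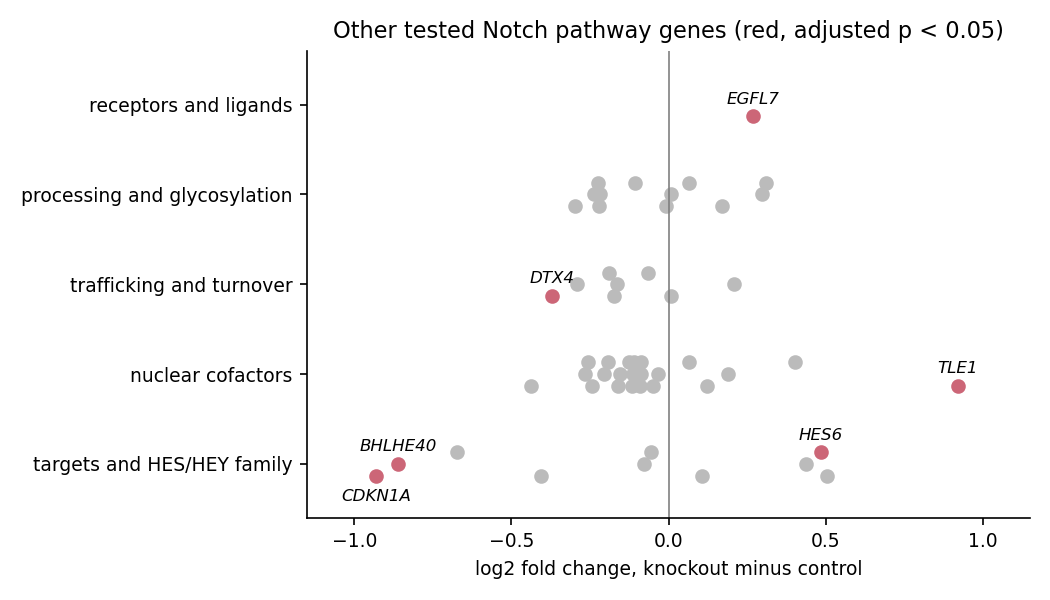
Log2 fold change, knockout minus control (x axis), of the 53 tested genes of the wider Notch list by role (y axis), with 1 point per gene and the 6 genes called by limma in red. TLE1 (0.92) and CDKN1A (-0.93) lie farthest from 0. No gene of receptor processing and glycosylation was called, where 13.1% of all tested genes were.

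Markers of other cell types were read beside these changes. Of 3 epithelial markers, KRT8 rose, with controls between 6.52 and 6.63 and knockouts between 6.84 and 7.10 (limma adjusted p = 0.0175). EPCAM lay between 2.38 and 2.75 in the controls and between 1.83 and 2.76 in the knockouts. It was not called (log2 fold change -0.32, limma adjusted p = 0.345). CDH1 was blank in all 4 knockout and in 2 control libraries. Of 3 mesenchymal markers, FN1 fell by 1.26 and VIM fell by 0.43 on the log2 scale (limma adjusted p = 0.0261 and 0.0425), and CDH2 lay between 4.31 and 4.57 in all 8 libraries. For replicates 1 and 2 the difference was -1.86 for FN1 and -0.62 for VIM, against -0.65 and -0.25 for replicates 3 and 4. Without the filter the limma adjusted p was 0.0445 for FN1 and 0.0675 for VIM. The summed linear level of the mesenchymal markers, most of it VIM, was 1860 to 1957 in the controls and 1207 to 1684 in the knockouts. The summed linear level of the 3 epithelial markers, most of it KRT8, was 97.9 to 104.8 in the controls and 121.1 to 140.8 in the knockouts. That of 3 endothelial markers was at most 0.31 in the controls and 0.64 in the knockouts. Among them KDR was -0.82 and -1.16 in knockout libraries 1 and 2 and -4.84 and -4.65 in knockout libraries 3 and 4. Its controls lay between -4.73 and -2.49. Of 3 leukocyte markers PTPRC and CD3E were blank in all 8 libraries. The third, CD14, lay between -4.90 and -4.22 in the controls, was blank in knockout libraries 1 and 2 and was -2.67 and -2.94 in knockout libraries 3 and 4. The part of these markers in the changes of JAG1, NOTCH2 and HES4 was not tested. In such bulk libraries fewer cells of a type and less RNA per cell cannot be told apart.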

How the data were processed

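RNA was extracted with TRIzol and sequenced with a stranded total-RNA kit, per the labels' protocols. The authors deposited 1 table of log2 values per gene symbol and library, and bcl2fastq, Partek 7.0 and GRCh38 are named in the submitters' processing notes. The aligner, counting program, strand setting and the unit before the logarithm are not given in the sources used here. All 8 deposited columns shared 1 mean, median and range, so the log2 values had been quantile normalized, and a shift of most genes cannot be seen. Base 2 was inferred from the range of values. Blank cells were treated as missing.

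The knockout and control groups were compared with limma 3.58.1 in R 4.3.3 (no trend, no covariate) over the 9016 genes without a blank cell and with a mean log2 value of at least 1, with Benjamini-Hochberg adjustment and a threshold of 0.05. For genes under the filter an exact two-sided permutation test over libraries was used. The fit was tested on simulated data with independent libraries, so that test does not cover the close pairs of knockout libraries. The members, the lists, the promoter motifs and the alternatives were chosen with earlier results of these data known. Named genes were the 10 members, the called genes of the wider list, the NOTCH2NL copies, NELL1 and the 3 genes most like each called member; MAML3, SOX9, MYC, NRARP, TRIB2, LFNG, GATA3, MIB2 and DLL4 were named after their values were seen. Single genes of receptor processing with only an unadjusted p under the threshold are not reported here. Same-numbered control and knockout libraries deviated together from their group means in all 4 pairs (correlation across genes 0.20 to 0.29), and a replicate block was fitted as an alternative. Differently numbered libraries (1 with 2, 3 with 4) did so to a like degree (0.11 to 0.31), so the sharing was not particular to the single number. The labels do not say what the numbers share.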

Additional observations from a re-analysis of the deposited data

Results flagged for a closer look

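The groups of 4 libraries of 16 genes (the 10 Notch genes and the 6 called genes of the wider list) were searched for a library far from the rest, and 1 of 32 groups held one. NOTCH3 in control library 3 was -2.31, and the nearest of the other control libraries was -1.55, a gap of 0.918 of the range of the group. Chance flags about 1 in 20 groups.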

How the results depend on the processing

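Of 1183 genes called over all 9016 tested genes (3 of the 10 Notch genes and 6 of the wider list), averaging the knockout pairs left 108 (0 and 2). An adjusted p under 0.01 left 272 (1 and 3), and a term for replicates 1-2 against 3-4 gave 2274 (wider list 12). A mean of at least 3 gave 729, but over a smaller set of 4684 tested genes. In that set 2 of 5 tested Notch genes and 2 of 25 tested genes of the wider list were called. The 0 by limma with the pairs averaged had 4 genes at an unadjusted p under 0.05, without a share of all tested genes to set beside it. The replicate block, which pairs same-numbered libraries, gave 924 (2 and 6). It ended the calls of NOTCH2 and EGFL7, added TRIB2 and changed no other call of the 10 genes or the wider list. Without the filter NOTCH2 and EGFL7 were not called either (limma adjusted p 0.0726 and 0.0671). Leaving out each library in turn gave 391 to 1353 genes, with 2 to 3 of the 10 Notch genes and 3 to 8 of the wider list. When 1 library was left out, 5 genes that were not called changed sign: HES1 ranged from -0.47 to 0.27, RBPJ from -0.10 to 0.0309, NOTCH1 from -0.12 to 0.0757, NOTCH3 from -0.0512 to 0.24 and DLL1 from -0.19 to 0.19. All called genes of the 10 Notch genes and of the wider list, and HEY1, kept their direction under all alternatives in which they were fitted. HES4, EGFL7, DTX4, TLE1 and HES6 have no value at a mean of at least 3. JAG1 lost its call with averaged pairs alone (adjusted p 0.00194 to 0.0566 over the alternatives, by limma). HEY1 was called under none (limma adjusted p 0.0694 to 0.237). Without counts, no counting error can be attached to a value.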

Other observations

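Of the 28 genes of the wider list that were not tested, 22 had a value in all 8 libraries. Limma without the filter called 0 of these 22, against 8.3% of all 13943 genes in that fit. At an unadjusted p under 0.05 there were 3 (DLL4, GATA3 and MIB2), without a share of all genes to set beside it. DLL4, a Delta-like ligand best known from endothelial cells, was -2.73, -3.04, -1.83 and -2.05 in the controls and -1.47, -1.68, -0.06 and 0.05 in the knockouts. The knockout values of DLL4 all lay above the controls, a difference of 1.63 on the log2 scale (exact permutation test, two-sided, p = 0.0286, the lowest that 4 against 4 libraries allow; limma adjusted p without the filter = 0.0745). It was chosen after its values were seen.

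LFNG, a sugar transferase that acts on Notch receptors and was below the filter, split as HES1 did. It was 0.93, 1.06, 1.09 and 0.92 in the controls, -0.04 and -0.09 in knockout libraries 1 and 2, and 1.37 and 1.25 in knockout libraries 3 and 4. MYC split the other way, with 2.25 and 2.16 in knockout libraries 1 and 2, 1.09 and 1.12 in knockout libraries 3 and 4, and 1.62 to 1.86 in the controls.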
